A study of Mus musculus with 2 samples.

Results

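The untreated livers of AID transgenic and wild-type mice were compared, gene by gene, across 14297 of the 17106 named genes measured in any channel of the study. A gene entered when a spot of it stood well above background in the untreated channel of at least 1 of the 2 arrays, and 13475 genes did so on both. AID is activation-induced cytidine deaminase, which turns cytosines of antibody genes into uracils in activated B cells, and the transgenic mice carry it as a transgene.

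The wild-type group was liver of C57BL/6 mice without treatment, and the AID transgenic group was untreated liver of AID transgenic mice on the same C57BL/6 background. Each array carried the untreated liver RNA of its genotype in Cy3 and, in Cy5, liver RNA of the same genotype after 6 months of thioacetamide, a hepatotoxin, in the drinking water. The treated channels are used here to set a value beside the untreated one. They also enter the normalization, so the untreated levels depend in part on the treated RNA of the same array. Both untreated livers were labelled with the same dye on arrays of 1 slide. There was 1 array per genotype, so no difference below has a replicate check and none has a p-value. The labels leave out the promoter that drives the transgene, the age and sex of the mice and the number of animals behind each RNA.

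The liver makes most plasma proteins, and the hepatocyte changes this output with the state of the body. In inflammation, interleukin-6 and interleukin-1 act through STAT3, C/EBP factors and NF-kB on acute-phase genes, of which the serum amyloid A genes span the widest range. After a meal, insulin, through SREBP-1c, together with ChREBP and LXR, raises the genes of fatty acid synthesis. Between meals FOXO1 and PPAR alpha act on genes of glucose output and fat burning. AID is best known from germinal centre B cells, and inflammatory signals are known to induce it in hepatocytes.

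Levels are given as log2 of the normalized spot intensity, to which an offset of 50 was added, so differences of dim genes are understated. Levels of different genes come from different probes and are not set against each other. A difference is the log2 level in the AID transgenic liver minus that in the wild-type liver. The value after ± is the error that the scanner software assigns to the signals, combined over both arrays. It is a technical error set by the software and not estimated from repeated spots, with a median of 0.20 over genes above background on both arrays. It is taken from the processed signal, without the offset, and says nothing of the spread between mice. A gene was counted as higher or lower when its difference reached 1 in size, a 2-fold change.

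The tissue label was checked with marker genes. All 5 hepatocyte markers (Alb, Ttr, Apoa1, Cps1 and Hnf4a) were well above background in both livers, with differences between -0.12 and 0.31. Of 6 B and plasma cell markers 2 were above background in either liver, and Ms4a1, Cd79a and Ighm were among those that were not. The Y-linked transcripts Ddx3y (difference 0.10) and Eif2s3y (difference -0.06) were well above background in both untreated livers, and Xist was in neither. In the treated livers Xist was well above background in the wild-type liver only, and the difference of Ddx3y was 4.58. The 2 treated livers therefore differ in sex-linked transcripts where the untreated livers do not, which bears on every treated value of a sex-biased gene below.

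The untreated livers differed little over the whole transcriptome. The median difference was -0.0019 with an SD over genes of 0.22, and 97.1% of genes lay within 0.5 on either side of 0. At 2-fold, 44 genes (0.308% of those measured) were higher and 42 (0.294%) were lower in the AID transgenic liver, 86 in all (0.602%). Past 4-fold there were 3 on each side, namely Tff3, Marco and Ccl21a above and Saa2, Saa1 and Aatk below. With 0.602% of all genes at 2-fold, any gene list below with none at 2-fold lies near that share. Between the treated livers 125 of 17078 genes (0.732%) were higher and 129 (0.755%) lower. Repeated spots give the scale of spot error within these 2 arrays. Over 360 probes with at least 8 spots the SD of the difference between spots had a median of 0.082 and a maximum of 0.22. It leaves out variation in RNA preparation, labelling and hybridization, which the spots of an array share. Of the 86 genes 68 rest on 1 probe, and Tox4 was the 1 of the other 18 whose probes lay on opposite sides of 0.

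**Figure D1:**
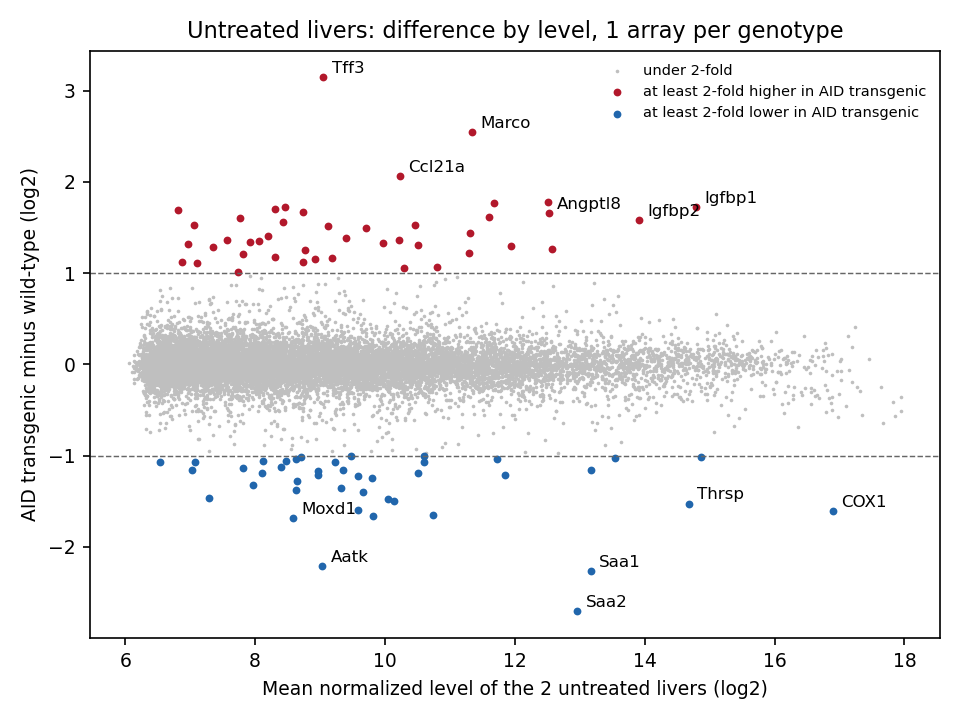
Difference between the untreated livers (AID transgenic minus wild-type, log2, vertical axis) by the mean normalized level of both livers (log2, horizontal axis), 1 point per gene, with dashed lines at 2-fold. The 44 higher and 42 lower genes lie at all levels, from dim Cxcl13 to bright Igfbp1 and COX1, and most genes lie in a band within 0.5 of 0.

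The lowest values of all were those of the acute-phase serum amyloids, lipoprotein-bound proteins that the liver releases in inflammation. Saa2 stood at 14.32 in the wild-type and 11.61 in the AID transgenic liver, a difference of -2.71 ± 0.20 or 6.53-fold lower. Saa1 stood at 14.30 and 12.04, a difference of -2.27 ± 0.20 or 4.82-fold lower. The unprocessed mean signals show the same gap, 14461 against 1935 for Saa2 and 14311 against 2606 for Saa1. Saa4, the constitutive member carried on HDL, was at 14.06 and 13.21, a difference of -0.85 that is under 2-fold. Saa3, which is made largely outside hepatocytes, was at 8.66 and 8.79 and differed by 0.13 ± 0.21, within its technical error. The 4 probes map to 1 cluster on mm9 chromosome 7, at chr7:53970389-53970448 (Saa3), chr7:53983662-53983721 (Saa4) and chr7:53996070-53996129 (Saa1) on the reverse strand and chr7:54009622-54009681 (Saa2) on the forward strand. Saa1 and Saa2 are close copies, so their probes may share signal and the 2 values are not independent.

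The bases before the Saa1 and Saa2 start sites are shown because these 2 genes gave the lowest values and face away from each other in the cluster with near-identical upstream sequence. They are from RefSeq on GRCm38.p6, 250 bases 5′ to 3′ ending at the base before the start, at chr7:46742981-46743230 (Saa1, reverse strand) and chr7:46751583-46751832 (Saa2, forward strand). Capitals mark matches to the C/EBP box TTGCNNAA and to the NF-kB motif.
Saa1: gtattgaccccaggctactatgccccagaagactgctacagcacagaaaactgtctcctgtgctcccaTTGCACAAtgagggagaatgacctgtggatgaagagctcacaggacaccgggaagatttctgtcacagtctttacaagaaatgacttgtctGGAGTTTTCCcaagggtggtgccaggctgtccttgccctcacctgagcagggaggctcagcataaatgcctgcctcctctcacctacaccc
Saa2: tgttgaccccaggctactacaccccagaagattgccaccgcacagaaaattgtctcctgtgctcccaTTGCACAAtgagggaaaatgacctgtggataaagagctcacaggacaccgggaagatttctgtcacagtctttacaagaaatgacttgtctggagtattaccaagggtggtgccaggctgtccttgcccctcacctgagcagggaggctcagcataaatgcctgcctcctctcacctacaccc
The pair shares 238 aligned bases, 94.8% identity, with 11 mismatches and 2 gap positions. Both have the C/EBP box, starting 182 bases before the start in Saa1 and 183 in Saa2, and Saa1 has the NF-kB motif starting 91 bases before the start. Searched on both strands, the C/EBP box is in 9.56% and the NF-kB motif in 7.97% of 32851 mouse promoter windows of the same length. A match describes letters and shows no binding.

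Other positive acute-phase genes lay mostly below 0, none of them at 2-fold. Of 28 measured members 2 were lower (Saa1 and Saa2) and none higher, 21 lay below 0, and the median was -0.34, beside -0.0019 and 50.7% below 0 for all genes. The median stayed between -0.47 and -0.28 under the 8 alternative settings. Orm2 (-0.73) and Orm1 (-0.63), plasma carriers of lipophilic drugs, Lcn2 (-0.72), which withholds iron from bacteria, and Hp (-0.53), which binds free haemoglobin, were among those below 0. Fgb (-0.05), a fibrinogen chain, and Crp (-0.07), which is not a strong acute-phase protein in mice, were near 0. Hamp (0.55) and Hamp2 (0.87), the hepcidin genes of iron control, lay above 0. The 11 negative acute-phase genes, which go down in inflammation, had none at 2-fold and a median of 0.19 (between 0.0025 and 0.21 under the alternative settings), with Serpina6 at 0.42, Ahsg at 0.41 and Alb at 0.31. Stat3 itself was at -0.55 and Cebpb at 0.16. The 16 measured genes of STAT3 and NF-kB feedback and signalling had none at 2-fold. They ran from -0.55 to 0.62 with a median of -0.02. Of the neutrophil markers, S100a9 (-0.79) and S100a8 (-0.32) lay below 0, and the summed unnormalized signal of 5 such markers was 618 in the wild-type and 412 in the AID transgenic liver. Unnormalized sums, here and below, carry the scale of each array, whose median spot signals were 72.1 and 67.6. Ngp and Ltf were not above background in either. The part of neutrophils in these values was not tested. Lrg1, another acute-phase protein that was not on the list and is named after its values were seen, was lower (15.37 and 14.35, difference -1.02). In whole liver, fewer cells of a type and less RNA per cell cannot be told apart, here and in all results that follow.

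The treated livers ran the other way for the serum amyloids. Saa2 was at 11.84 in the treated wild-type and 14.11 in the treated AID transgenic liver, so its level was high in untreated wild-type and treated AID transgenic liver and low in the other two. Saa1 had the same order, 12.18 and 13.84. The median of the whole acute-phase list between the treated livers was -0.03.

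**Figure D2:**
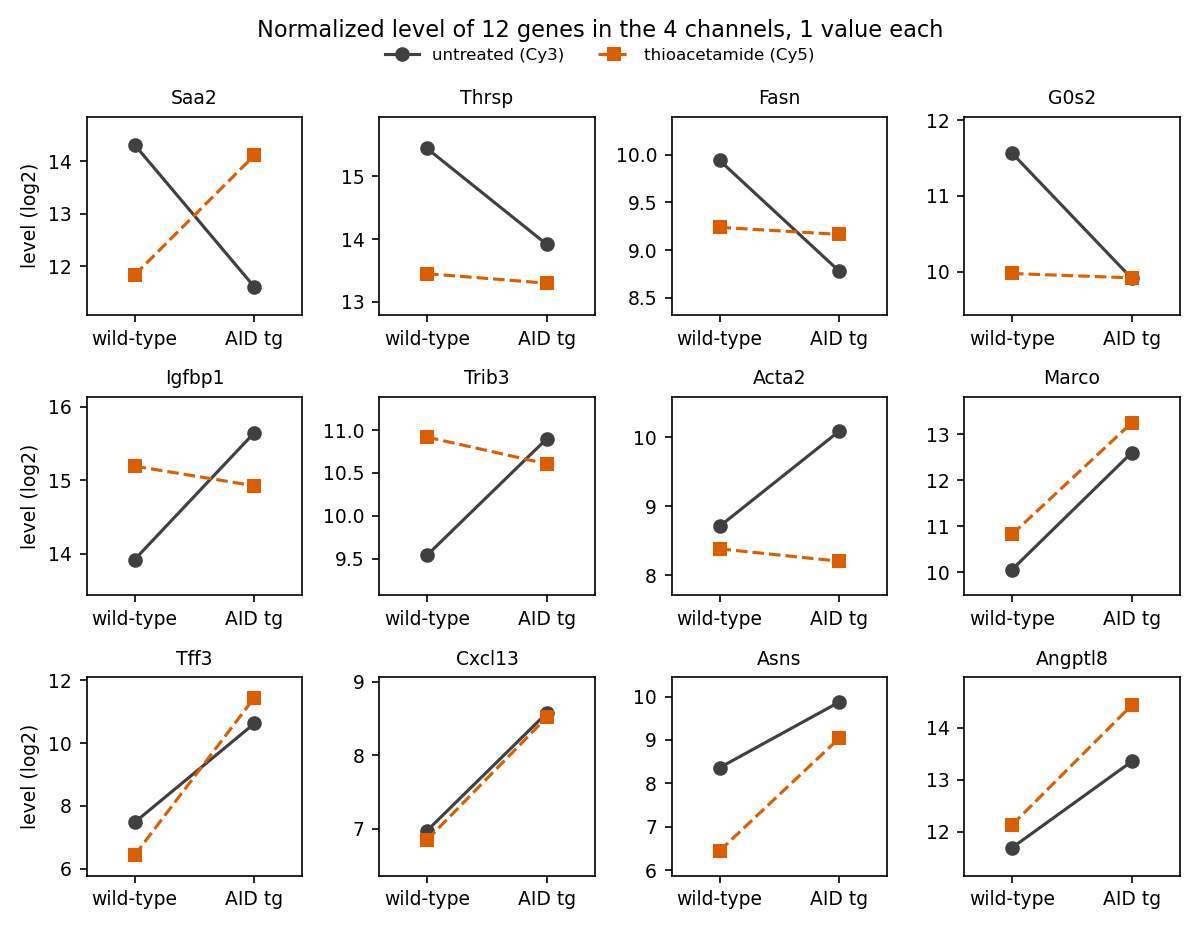
Normalized level (log2, vertical axes with a separate range per panel) of 12 genes in the wild-type and AID transgenic livers, untreated in Cy3 (circles, solid lines) and after thioacetamide in Cy5 (squares, dashed lines), 1 value per channel with no error bar. In Saa2 the lines cross, in Marco, Tff3, Cxcl13, Asns and Angptl8 both lines go up to the AID transgenic liver, and in Thrsp, Fasn, G0s2 and Acta2 the untreated pair differs while the treated pair lies within 0.20.

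Of 18 measured genes of fatty acid synthesis and feeding 3 were lower and none higher. Thrsp, which responds to thyroid hormone and carbohydrate and promotes fat synthesis, went from 15.44 to 13.91, a difference of -1.53 ± 0.20. Fasn, the fatty acid synthase, was at 9.94 and 8.78, a difference of -1.16 ± 0.21. Pklr, the liver pyruvate kinase and a classical ChREBP target, was at 9.22 and 8.20, a difference of -1.02 ± 0.21, just past the 2-fold line. Of the 18 genes 16 lay below 0, and the median was -0.33, between -0.52 and -0.32 under the alternative settings. Me1, which supplies NADPH, was at -0.75, Acacb at -0.56, Acly at -0.49 and Srebf1, the gene for SREBP-1, at -0.33. Mlxipl, the gene for ChREBP, was at 0.11 and Elovl5, a fatty acid elongase, at 0.59. G0s2, an inhibitor of the lipase ATGL that is not on this list, stood at 11.56 and 9.91, a difference of -1.65 ± 0.20. In the treated livers Thrsp (-0.15), Fasn (-0.07) and G0s2 (-0.06) lay within 0.20 of 0. Cholesterol synthesis, which SREBP-2 drives, had no gene of 23 at 2-fold and a median of -0.04.

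Of 30 measured targets of PPAR alpha, the fatty acid sensor of the fasted liver, 26 lay below 0, the median was -0.29 (between -0.38 and -0.21 under the alternative settings), and 1 was lower at 2-fold. That gene was Acot3, an acyl-CoA thioesterase, at 7.62 and 6.54, a difference of -1.07 ± 0.76 whose probes differed with an SD of 0.86. The fatty acid transporter Cd36 was at -0.93, Vnn1 at -0.71 and Pex11a at -0.69. Cyp4a14, a fatty acid hydroxylase often used as a PPAR alpha marker, went the other way, with 10.64 and 11.59 and a difference of 0.95. Cpt1a (-0.10) and Ppara itself (-0.18) lay within 0.20 of 0.

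Of 21 genes of gluconeogenesis and fasting 1 was higher, Igfbp1, and none lower, with a median of -0.10. Igfbp1, a secreted binder of insulin-like growth factors that insulin holds down, stood at 13.92 and 15.65, a difference of 1.73 ± 0.20 or 3.31-fold. Its unprocessed signal was 10789 in the wild-type and 31814 in the AID transgenic liver. Igfbp2 stood at 13.12 and 14.71, a difference of 1.58 ± 0.14 over 2 probes that differed with an SD of 0.01. Irs2, an insulin receptor substrate that is high in fasting, was at 0.90 and under 2-fold. Depp1, a FOXO target on no list, stood at 10.79 and 12.41 with a difference of 1.62 ± 0.20. Among the other genes of this list Pck1, the rate-limiting step of glucose synthesis, was at 0.04, and Fgf21, a fasting hormone, at -0.35.

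The Igfbp1 promoter is shown for its insulin response element, whose core CAAAACA is in capitals (RefSeq, GRCm38.p6, chr11:7197537-7197786, forward strand).
Igfbp1: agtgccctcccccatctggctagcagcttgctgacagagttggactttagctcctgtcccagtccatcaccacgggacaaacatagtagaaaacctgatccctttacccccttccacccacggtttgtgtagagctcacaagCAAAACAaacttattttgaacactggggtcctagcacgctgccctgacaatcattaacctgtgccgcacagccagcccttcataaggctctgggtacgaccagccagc
The core starts 108 bases before the start site. On both strands it is in 5.56% of the mouse promoter windows. The Igfbp1 probe lies at chr11:7102442-7102501 of mm9.

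Enho, Angptl8 and Lpl, 3 of the 15 highest genes, make secreted proteins, and of these only Lpl was on a list. Enho, the gene for adropin, stood at 11.63 and 13.41, a difference of 1.78 ± 0.14 with both probes within an SD of 0.01. Angptl8, a hormone of the fed state that acts on lipoprotein lipase, stood at 11.70 and 13.35, a difference of 1.66 ± 0.20. Lpl, the lipoprotein lipase itself, which adult hepatocytes make little of, stood at 7.60 and 9.32. The difference of Lpl was 1.72 ± 0.16 over 2 probes that differed with an SD of 0.48. It was the only one of 21 apolipoprotein and lipid transport genes at 2-fold, and their median was 0.09. Angptl8 and Lpl were also higher in the treated AID transgenic liver (2.30 and 1.61), whereas Enho (-0.31) and Igfbp1 (-0.27) were not. Angptl8, high after feeding, and Igfbp1, high in fasting, lay above 0, while Thrsp and Fasn, also high after feeding, lay below. The part of feeding state in these values was not tested.

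In the growth hormone and IGF list 3 of 16 genes were higher (Igfbp1, Igfbp2 and Socs2) and none lower, with a median of 0.04 that turned negative under 2 settings. Socs2, which damps growth hormone signalling and is induced by it, stood at 6.89 and 8.25. Its difference was 1.36 ± 0.15 over 3 probes that differed with an SD of 0.24. Bcl6, which represses female-type genes in male liver, was at 0.78. Cish, another feedback inhibitor of the same receptor, was at -0.21.

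Of 25 genes of the unfolded protein and integrated stress response 3 were higher and none lower. Asns, the asparagine synthetase that ATF4 induces when amino acids are short, stood at 8.36 and 9.87, a difference of 1.51 ± 0.21. Trib3, a pseudokinase and ATF4 target, stood at 9.54 and 10.90, a difference of 1.36 ± 0.20. Ddit4, an inhibitor of mTORC1, stood at 11.30 and 12.59, a difference of 1.29 ± 0.20. Chac1, which degrades glutathione, was at 0.56. The median of the list was 0.05 and turned negative under 2 settings. Atf4 (0.05) and the endoplasmic reticulum chaperone Hspa5 (0.12) differed by less than their technical error, Ddit3, the gene for CHOP, was at -0.24, and Derl3, a factor of protein degradation from the endoplasmic reticulum, at -0.53. In the treated livers Asns was again higher in the AID transgenic liver, by 2.60, and Trib3 (-0.31) and Ddit4 (-0.48) were not.

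The Asns promoter is shown for the C/EBP-ATF element TGATGNAA, the kind of site that ATF4 binds, in capitals (RefSeq, GRCm38.p6, chr6:7693210-7693459, reverse strand). The Asns probe lies at chr6:7625171-7625228 of mm9.
Asns: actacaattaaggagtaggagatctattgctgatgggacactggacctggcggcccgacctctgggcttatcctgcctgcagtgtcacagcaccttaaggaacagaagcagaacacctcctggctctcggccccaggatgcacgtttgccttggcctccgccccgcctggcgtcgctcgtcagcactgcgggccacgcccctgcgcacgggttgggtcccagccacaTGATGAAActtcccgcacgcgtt
The element starts 23 bases before the start site, and 3.45% of the promoter windows hold one on either strand.

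Of 13 contractile genes 3 were higher and none lower, 9 lay above 0 and 4 below, and the median was 0.22 (between 0.12 and 0.35 under the alternative settings). Acta2, the gene for smooth muscle actin and a mark of activated stellate cells, stood at 8.71 and 10.09 as means of 9 spots, a difference of 1.38 ± 0.21. Cnn1, calponin, stood at 7.24 and 8.59, a difference of 1.34 ± 0.22, and Myl9, a myosin light chain, at 9.77 and 10.82, a difference of 1.06 ± 0.20. Of 27 collagen and matrix genes none was at 2-fold and 22 lay above 0, with a median of 0.21 (between 0.09 and 0.39 under the alternative settings). Col1a1 was at 8.54 and 9.42 (0.88), Col1a2 at 0.83, Lum at 0.78 and Col3a1 at 0.62. The summed unnormalized signal of 4 smooth muscle markers, Acta2 and Cnn1 among them, was 2456 in the wild-type and 3277 in the AID transgenic liver, and that of 5 stellate cell markers 1459 and 1997. Des, which marks resting stellate cells, was at 0.14 and Lrat, which stores their retinoid, at -0.23. Msln, a mesothelium marker, was above background in the AID transgenic liver only. The part of vessel wall, capsule or stellate cells in these values was not tested. Between the treated livers the same genes lay on the other side of 0, with Col1a1 at -1.16, Col3a1 at -0.98 and Acta2 at -0.18.

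**Figure D3:**
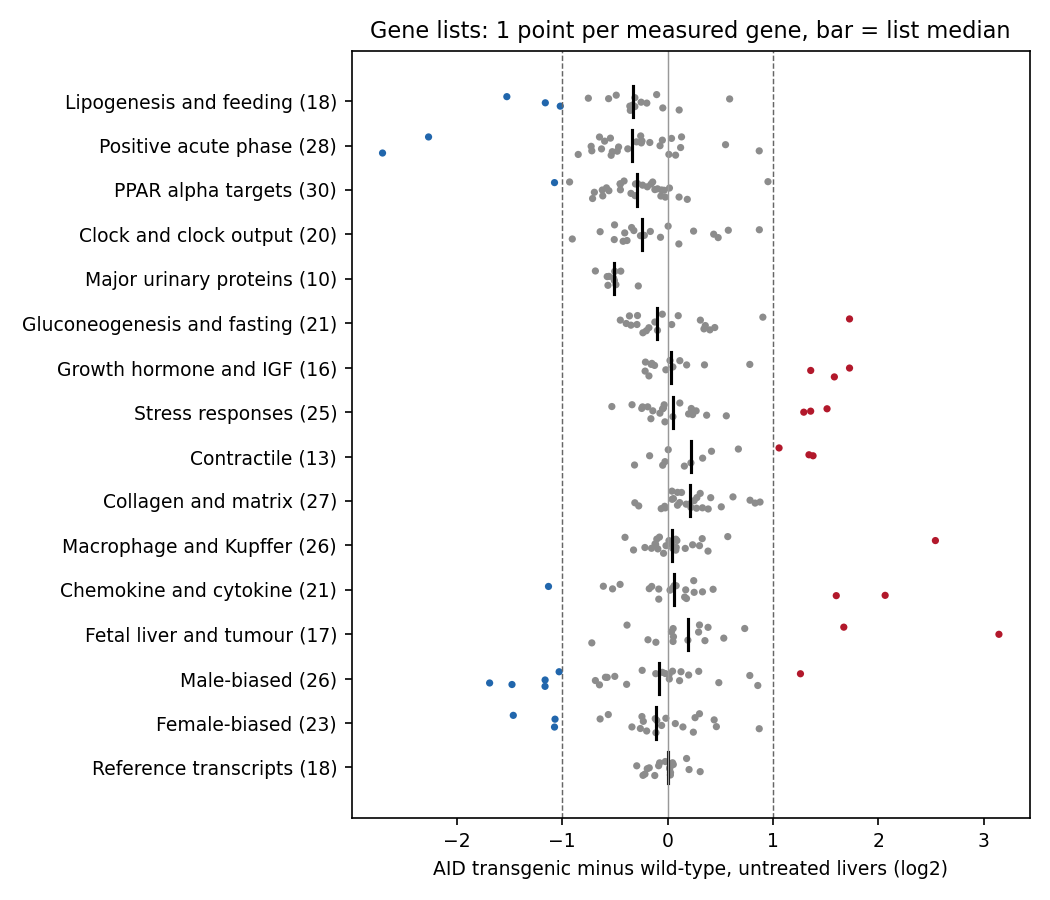
Differences between the untreated livers (log2, horizontal axis) of the measured genes of 16 lists, 1 point per gene and a black bar at the list's median, with the number of genes in parentheses and dashed lines at 2-fold. The medians lie from -0.51 for the major urinary proteins to 0.22 for the contractile genes, and the genes past 2-fold are few in each list.

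Marco, a scavenger receptor of macrophages that binds bacteria and particles, had the second highest value. It stood at 10.06 and 12.61, a difference of 2.54 ± 0.20 or 5.83-fold. The other macrophage genes did not share it. Of 26 measured genes Marco was the only one at 2-fold, the median was 0.04 with a sign that turned under 3 settings, and the Kupffer cell markers Clec4f (-0.15), Cd5l (0.08), Vsig4 (-0.09) and Timd4 (0.17) were near 0. The normalized differences of 7 macrophage markers ran from -0.15 to 0.24, and their summed unnormalized signal was 10914 in the wild-type and 9475 in the AID transgenic liver. Marco was also higher in the treated AID transgenic liver, at 10.83 and 13.25, a difference of 2.43, where Cd5l was at 1.41 and Adgre1 at 1.07.

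Of 21 chemokine and cytokine genes 2 were higher and 1 lower. Ccl21a, which draws T cells and dendritic cells to lymphatic vessels and lymphoid tissue, stood at 9.20 and 11.26, a difference of 2.07 ± 0.20. It has near-identical gene copies that its probe cannot tell apart. Cxcl13, the B cell attractant of follicles, stood at 6.97 and 8.57, a difference of 1.60 ± 0.23. Cxcl1, a neutrophil attractant, stood at 8.96 and 7.83, a difference of -1.13 ± 0.21. The 17 T and NK cell genes and the 11 B and plasma cell genes had none at 2-fold. Of the T and NK cell genes 15 lay above 0, with a median of 0.15 (between 0.04 and 0.22 under the alternative settings). Of the B and plasma cell genes 8 lay above 0, with a median of 0.09 that was negative without normalization between arrays. Lyve1, a lymphatic and sinusoidal marker, was at -0.07. In the treated livers Cxcl13 was again higher (1.67) and Ccl21a was at 0.55. Interferon-induced genes (30 measured, median -0.02) and MHC class II genes (8 measured, median 0.14) had none at 2-fold.

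The highest value was that of Tff3, a secreted trefoil peptide of mucosal surfaces that is low in normal liver. It stood at 7.48 in the wild-type and 10.62 in the AID transgenic liver, a difference of 3.15 ± 0.21 or 8.85-fold, with unprocessed signals of 128 and 977. In the treated livers it was at 6.43 and 11.44. Scd2, the stearoyl-CoA desaturase of fetal liver and brain, stood at 7.90 and 9.58, a difference of 1.67 ± 0.21. Of 17 fetal liver and liver tumour genes these 2 were higher and none lower, with a median of 0.19 that ranged from 0.04 to 0.29 under the alternative settings. H19, an imprinted fetal transcript, was at 0.73 and Spink1, a trypsin inhibitor, at 0.53, while Afp, the fetal serum protein, was at 0.35 and close to background (7.23 and 7.58). Of the cholangiocyte markers Krt7 and Epcam were not above background in either liver, Krt19 was at 0.54 and Sox9 at -0.07. The 18 measured cholangiocyte and ductular genes had none at 2-fold and a median of 0.16 (between 0.01 and 0.20 under the alternative settings).

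Of 23 hepatocyte transcription factors 2 were higher and none lower, with a median of -0.05. Nr0b2, the gene for the repressor SHP, stood at 8.35 and 9.51, a difference of 1.16 ± 0.21, and Nr1i2, the gene for PXR, at 10.27 and 11.34, a difference of 1.07 ± 0.20. Nr1h4, the gene for FXR, which induces Nr0b2, was at -0.51. Of 22 bile acid genes none other than Nr0b2 was at 2-fold, and the median was 0.05, negative under 2 settings. Of 23 CAR and PXR targets Nr1i2 was higher and Cyp2b13 lower, and Cyp2b10, the usual CAR marker, was at -0.86. Hsd17b6, a steroid dehydrogenase, stood at 9.70 and 11.23, a difference of 1.53 ± 0.20, and with Igfbp2 made 2 of 26 periportal genes higher. None of 26 pericentral genes was at 2-fold, and Tbx3, a Wnt target there, was at -0.79. The pericentral median was 0.00 with a sign that turned under 4 settings, and Cyp2e1, which activates thioacetamide, was at 0.23.

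Sex-biased genes of both kinds were among the lower genes. Of 26 male-biased genes 5 were lower and 1 higher. Cyp4a12a, a male arachidonate hydroxylase, stood at 13.75 and 12.59, a difference of -1.16 ± 0.20. Its close copy Cyp4a12b was at -1.03, and the 2 may share signal. Moxd1 (9.44 and 7.75, difference -1.69 ± 0.21) and Nat8f5 (10.78 and 9.31, difference -1.48 ± 0.20) were lower too. Ces4a was at least 2.24-fold lower, with a scanner error of 0.40, since it was not above background in the AID transgenic liver. Serpina4-ps1, a pseudogene of male liver, was higher (11.94 and 13.21, difference 1.26 ± 0.14) and Elovl3 was at 0.86. Hsd3b5 (0.49) and Cyp2d9 (-0.02), further male genes, were under 2-fold, and the median of the list was -0.08. Of 23 female-biased genes 3 were lower and none higher, with a median of -0.11. Cyp2b13 was at least 2.76-fold lower, with a scanner error of 0.52, and Acot3 (above) was close to background. A1bg was at -1.07 ± 1.45, but it was not above background in the AID transgenic liver, and its bound is at least 1.69-fold lower. The 10 measured major urinary protein and related genes, pheromone carriers of male mice, all lay below 0, from -0.69 to -0.28 with a median of -0.51, but none was at 2-fold. They are near-identical copies, so this is closer to 1 measurement than to 10. Between the treated livers, where sex-linked transcripts differed, the medians of the male and female lists were 1.30 and -1.69.

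No gene of the circadian clock and its output was at 2-fold, but several lay apart from 0. The clock times liver metabolism to the day, and its genes rise and fall with the hour of sampling. Arntl, the gene for BMAL1, was at 7.07 and 7.65 (0.58), and Nr1d1, which represses it, at 8.87 and 9.35 (0.48). Dbp (-0.41), Per2 (-0.39), Per3 (-0.42), Nr1d2 (-0.26) and Ciart (-0.64) lay below 0, Per1 was at 0.01, and Npas2 was not above background. Usp2, a clock-controlled protease, was at -0.90 and the vasopressin receptor Avpr1a at 0.87. The median of the 20 genes was -0.24. No source used here gives the hour at which the livers were taken, and the clock's part in the metabolic values above was not tested.

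Of 29 measured cytidine deaminase and lesion repair genes, on which AID's own chemistry would bear, none was at 2-fold. The share over all genes was 0.602%, so this count is near it. The median of the list was 0.00 with a sign that turned under 5 settings. Apobec1, the deaminase that edits apolipoprotein B mRNA, was at 9.79 and 10.37 (0.58), Apobec3 at 0.04, Ung, the uracil glycosylase that removes what AID makes, at -0.21, and Mgmt, which repairs alkylated guanine, at -0.39. Of 23 p53 targets Ddit4 was the only one at 2-fold, with a median of -0.06, and Phlda3 was at -0.50. Of 22 genes of the G1 to S transition Rrm2, a subunit of ribonucleotide reductase, was lower (9.56 and 8.39, difference -1.17 ± 0.21), while Ccnd1 was at 0.70. None of 16 mitosis genes was at 2-fold. NRF2 targets (31 genes, median 0.03), heat shock genes (19, median 0.06) and 18 reference transcripts (median -0.0006) had none at 2-fold either, and the medians changed sign under 2, 2 and 4 settings, with Actb at -0.12 and Gapdh at -0.29.

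Several of the lowest and highest genes belong to no list. Aatk, a neuronal kinase, stood at 10.14 and 7.93, a difference of -2.21 ± 0.21. Pde5a, which breaks down cyclic GMP, stood at 10.65 and 8.99, a difference of -1.67 ± 0.20, and Clstn3, a calsyntenin, at 10.39 and 8.79, a difference of -1.59 ± 0.21. Cabyr (-1.40), Lrtm1 (-1.38), Slc49a4 (-1.35), E030018B13Rik (-1.32) and Dct (-1.50), a melanin enzyme, complete the low end beside the mitochondrial COX1 (-1.61). At the high end Xlr3b, an X-linked gene with close copies, stood at 7.45 and 9.15, a difference of 1.70 ± 0.15, and Cdc42ep5, a CDC42 effector, at 7.64 and 9.21, a difference of 1.56 ± 0.21. Slc39a9 (at least 2.89-fold), Dmbt1 (at least 2.61-fold), Mmrn1 (at least 2.49-fold) and Penk (at least 2.17-fold) were higher against a wild-type level that was not above background. Their scanner errors, in the same order, were 0.53, 1.45, 0.62 and 0.59, and the bounds do not take these in.

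**Figure D4:**
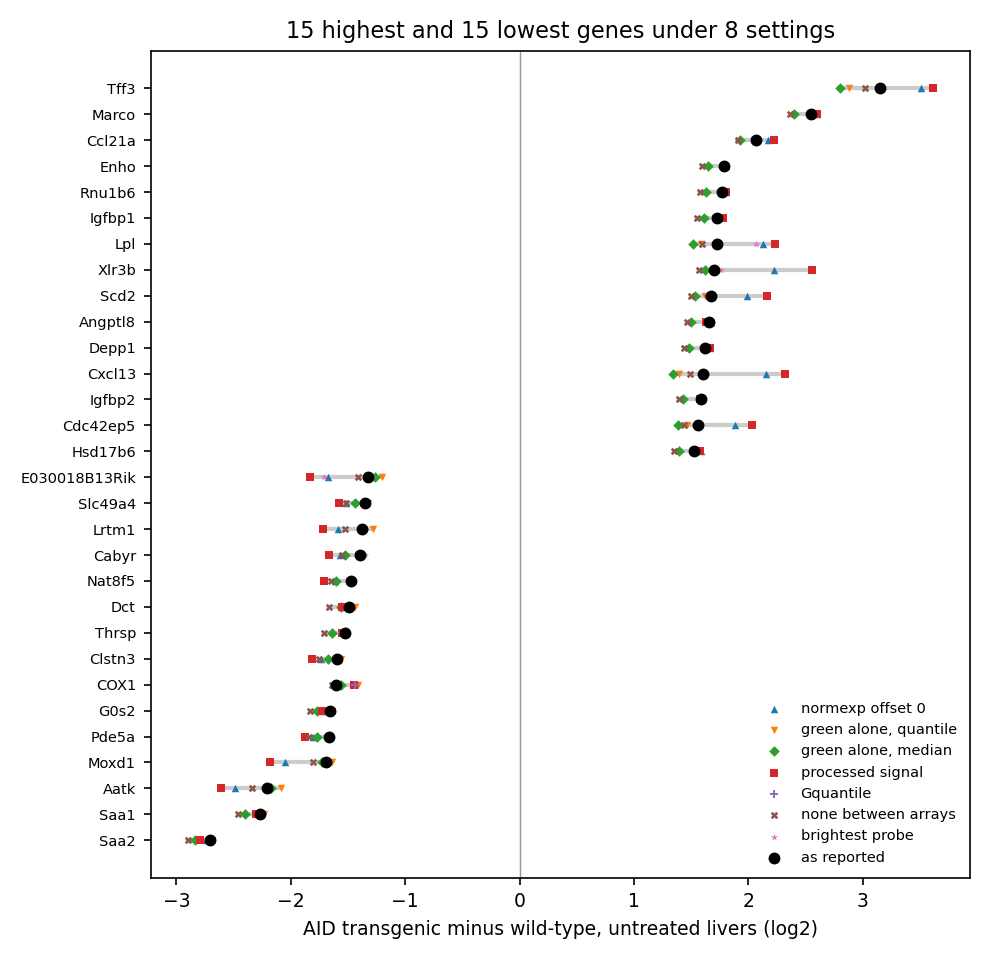
Difference between the untreated livers (log2, horizontal axis) of the 15 highest and 15 lowest genes under the reported processing (black circles) and 7 others (coloured marks), with a grey bar from the lowest to the highest value. No gene changes side, and the dim genes such as Tff3, Lpl, Xlr3b and Cxcl13 spread the most.

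Set beside the treated livers, 19 of the 86 genes were at 2-fold in the same direction, 11 in the opposite direction and 56 under 2-fold. The 19 are 22.1% of the untreated calls and 7.48% of the 254 treated calls (1.49% of the genes measured there). The treated livers are other RNA samples on the same spots, so a fault of a spot enters both values. Higher in the AID transgenic liver in both states were Tff3, Marco, Lpl, Angptl8, Cxcl13, Igfbp2, Asns, Serpina4-ps1, Clec2h (1.41 and 1.32), Adgrf1 (1.25 and 1.59) and Fst, the gene for follistatin (1.18 and 1.55). Lower in both were Dct (-1.50 and -1.78), Lrtm1 (-1.38 and -1.33), Nrg4 (-1.28 and -1.32), Rgs16 (-1.22 and -2.45), Acot3, A1bg, Cyp2b13 and Tox4. Of these, Tox4 had probes on opposite sides of 0 in the untreated livers. The untreated bound of A1bg was under 2-fold, and Acot3 was at -1.07 ± 0.76. Acot3, A1bg and Cyp2b13 are female-biased and Serpina4-ps1 is male-biased, and the treated livers differ in sex-linked transcripts. Clec2h, Adgrf1, Fst, Nrg4 and Rgs16 are named here after their values were seen.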

How the data were processed

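Both arrays were 2-colour Agilent mouse arrays on 1 slide. The authors deposited scanner output, from which the spot mean signals and local background medians were taken, raw intensity values according to the headers. The file headers name Feature Extraction 10.7.3.1, while the submitters' processing notes name 10.5.1.1. Probe positions are on mm9, per the file headers.

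Background was corrected by normexp (offset 50) in limma 3.58.1 with R 4.3.3. Signals were normalized by loess within arrays, with weight 0 for control and outlier spots, and by Aquantile between arrays. Control spots and 346 of 43020 spots that the software marked as outliers on either array, in either channel, were left out. The green (Cy3) values were compared. The red (Cy5) values of the treated livers enter them through both normalization steps. Spots of a probe and then probes of a gene were averaged with Python 3.11.15, pandas 2.3.3 and numpy 2.4.6. Of 39429 probes 26055 were named by RefSeq accession, 3195 by symbol and 930 by a unique synonym through the GRCm38.p6 gene table, and 9249 stayed unnamed. Of the unnamed sequences measured, 3704 in all, 8 were higher and 3 lower at 2-fold, and they are not reported further. In green, 56.0% of wild-type and 53.9% of AID transgenic spots were well above background and none was saturated. Precision is limited by having 2 arrays.

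With 1 array per genotype nothing could be tested, and genes were counted at a log2 difference of at least 1 in size. Where a gene was above background on 1 array only, its fold is a lower bound against the higher of its dim level and the lowest level that was well above background on that array. This bound does not take in the scanner error. The text names the 15 highest and 15 lowest genes above background on both arrays with all probes on the same side. It adds the bounds past 2-fold among the 8 largest each way, members at 2-fold and up to 6 leading members of the lists described, and a set of clock, reference and sex-linked genes. Further members are given for the reading of a list, and those were chosen after their values were seen. The 51 lists and the genes were chosen with earlier results of these data known. The normalization was checked on simulated data. Promoter bases are from RefSeq. Some genes are not reported here.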

Additional observations from a re-analysis of the deposited data

Results flagged for a closer look

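For 11 genes the untreated and the treated livers differed at least 2-fold between the genotypes in opposite directions. With 1 array per genotype these opposite signs were not tested, and the treated livers also differ in sex-linked transcripts. Among acute-phase genes, Saa2 differed by -2.71 without and 2.28 with thioacetamide, Saa1 by -2.27 and 1.66, and Lrg1 by -1.02 and 1.02. Among male-biased genes, Cyp4a12a differed by -1.16 and 5.23, Cyp4a12b by -1.03 and 3.92, Nat8f5 by -1.48 and 2.89, and Moxd1 by -1.69 and 1.47. Of the others, Cabyr differed by -1.40 and 2.78, Gm4956 by -1.03 and 3.86, Zfp982 by -1.04 and 1.76, and Xlr3b by 1.70 and -1.34.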

How the results depend on the processing

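The number of genes at 2-fold depended on how dim signals were treated. With a normexp offset of 0 there were 106 higher and 99 lower genes, and with the scanner's processed signal scaled to its 75th percentile 214 and 204. Both settings kept all 86 genes at 2-fold in the same direction. Without normalization between arrays 40 genes were higher and 60 lower, so 40.0% of the calls were higher in place of 51.2%, and the median over all genes moved to -0.1319. That setting kept 82 of the 86 genes. Green-channel quantile normalization kept 77 and median centring 79, both without the treated channel. Among the genes that the former took under 2-fold were A1bg (-0.61) and Acot3 (-0.82). Over the 8 alternatives no gene of the 86 changed sign. No paired analysis was possible because there was 1 array per genotype and no test. Depth limits the genes near background, whose differences the offset shrinks. Genotype cannot be told apart from the animal, its sampling and its array.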

Other observations

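Messages of the mitochondrial genome were a group outside the lists above, chosen after their values were seen. COX1, a subunit of cytochrome c oxidase, stood at 17.70 in the wild-type and 16.09 in the AID transgenic liver, a difference of -1.61 ± 0.20, with unprocessed signals of 133937 and 43970. Its probe lies at position 6650 to 6709 of the mitochondrial genome. Another 10 of the 12 measured messages lay between -0.46 (CYTB) and -0.29 (COX2), and ND6, the only one on the light strand, was at 0.05. The median was -0.35. The mitochondrial messages share precursor transcripts, and COX1 lay below all the others measured. Its value rests on 1 probe with 1 spot per array, and the part of the spot in it was not tested. Between the treated livers COX1 was at 0.59 and the median was 0.35.

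Nuclear and small structural RNAs were also chosen after their values were seen. At 2-fold 4 of 10 were higher in the AID transgenic liver, beside 0.308% of all genes, and the median was 0.87. The choice shaped this count and median, so they are no result about such RNAs as a group. Rnu1b6, a U1 spliceosomal RNA, stood at 10.79 and 12.56, a difference of 1.77 ± 0.20. Rnu3b1, a U3 RNA of ribosome assembly, was at 1.49, Neat1, the scaffold of paraspeckles, at 1.22, and Meg3, an imprinted long RNA, at 1.28 with probes that differed by an SD of 0.95. Rmrp and Rnu2-10 were both at 0.87, while Malat1, the abundant RNA of nuclear speckles, was at -0.17 and Rnu7 at 0.01. Between the treated livers the median of these RNAs was -0.21.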
